A study of Mus musculus with 6 samples.

Results

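The genes described here are 10 goblet cell genes and their regulators: the secreted products Spink4, Tff3, Muc2, Fcgbp and Clca1, the cell surface mucin Muc13, the folding enzyme Agr2, and the transcription factors Spdef, Creb3l1 and Creb3l4. They were picked by symbol from the 52249 genes of the table, and all 10 were found. The choice was made with the OE-labelled against control values of these same libraries known, so the differences of the 10 genes are given as a description, with fold changes and standard errors; they entered the fit across all genes, and no p-value of theirs is used as support.

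Polyadenylated transcripts were counted at their 3′ ends in 6 libraries from organoids of the mouse intestine, which are epithelial cultures grown from the gut lining. All 6 libraries carry the genotype Apc-knockout, which removes a brake on WNT signalling. The 3 control libraries have that genotype alone, and the 3 others are labelled Apc-knockout, IGF2BP3 overexpression, IGF2BP3 being an RNA-binding protein. The gut segment, the way the knockout and the overexpression were made, any selection of clones and the age of the mice are not given in the sources used here, and no library with intact Apc was analysed here. The second group is called OE-labelled because Igf2bp3 itself had 1, 0 and 0 counts in both groups, in replicate order, so its counts gave no check of the label. Apc was counted at 182, 174 and 164 for control and 158, 151 and 148 in OE-labelled libraries, counts that do not separate mutant from intact transcripts (log2 fold change -0.37, SE 0.12, edgeR adjusted p = 0.0323, lost in 8 of 16 alternative analyses with p up to 0.297).

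Goblet cells are the mucus-secreting cells of the intestinal epithelium. Their main product is the gel-forming mucin MUC2, which is disulfide-linked in the endoplasmic reticulum, densely O-glycosylated in the Golgi, packed into granules and released with FCGBP, CLCA1, trefoil peptides and ZG16. ATOH1 commits progenitors to the secretory lineage, SPDEF drives goblet maturation, and the CREB3-like factors are membrane-bound proteins of the endoplasmic reticulum that are released by proteolysis to switch on secretory pathway genes.

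A 3′ library is primed at the poly(A) tail, so counts are assigned mainly from transcript ends; the positions of the reads were not analysed here. Stretches at or near the annotated ends are shown for 5 genes, 3 that were higher in OE-labelled libraries and 2 that serve for comparison. Those of Tff3 and Creb3l1 stop short of the end, which lies 45 and 24 bases after the hexamer. Each stretch is a window of 30 bases in transcript direction, with the poly(A) signal hexamer in capitals.
Spink4, chr4:40931366-40931395, plus strand: gacatgaAATAAAagatgcagcccaagcta
Tff3, chr17:31125331-31125360, minus strand: gaagAATAAAgacctcacagccaacacaag
Fcgbp, chr7:28120833-28120862, plus strand: agcattgagtaAATAAAtacctagacacag
Muc2, chr7:141754661-141754690, plus strand: tgctttccgatAATAAActcaggcatagcc
Creb3l1, chr2:91982332-91982361, minus strand: caaaATTAAAaaaaaaaaaaagattcagca
Positions are those of GRCm38 and sequences those of GENCODE M21 transcripts. The whole genes, all protein coding, lie at chr4:40920052-40931395 (Spink4, ENSMUSG00000028415), chr17:31125306-31129646 (Tff3, ENSMUSG00000024029), chr7:28071236-28120862 (Fcgbp, ENSMUSG00000047730), chr7:141690340-141754693 (Muc2, ENSMUSG00000025515) and chr2:91982328-92024502 (Creb3l1, ENSMUSG00000027230). The hexamer AATAAA lay in the last 60 bases of the representative transcript of Spink4, Tff3, Agr2, Muc2, Muc13, Fcgbp and Clca1. Creb3l1 had ATTAAA instead, followed by 11 A in a row in the transcript itself. The representative transcripts of Spdef and Creb3l4 had neither hexamer in that window. Counting all their transcripts with an annotated end, AATAAA was in 1 of 3 for Spdef, 1 of 2 for Creb3l4 and 2 of 4 for Muc2. Of 48042 protein-coding transcripts with an annotated end, 49.9% held AATAAA and 61.7% held AATAAA or ATTAAA, both read on the transcript strand only. These shares cover every such transcript, not a representative per gene.

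The levels of the 10 genes spanned a wide range. They are given as TMM-scaled CPM, counts scaled to a common library size after TMM adjustment of the totals, and since each transcript is counted at its end the levels do not scale with transcript length. Spink4 alone supplied 71.4% ± 0.883 of the summed member counts for control and 78.3% ± 2.11 in the OE-labelled group (mean ± SD, n = 3). All members together held 0.0657% ± 0.00131 of the counts for control and 0.149% ± 0.0145 in the OE-labelled group (mean ± SD, n = 3). In bulk libraries a difference in the number of goblet-type cells and a difference in goblet RNA per cell cannot be told apart.

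**Figure D1:**
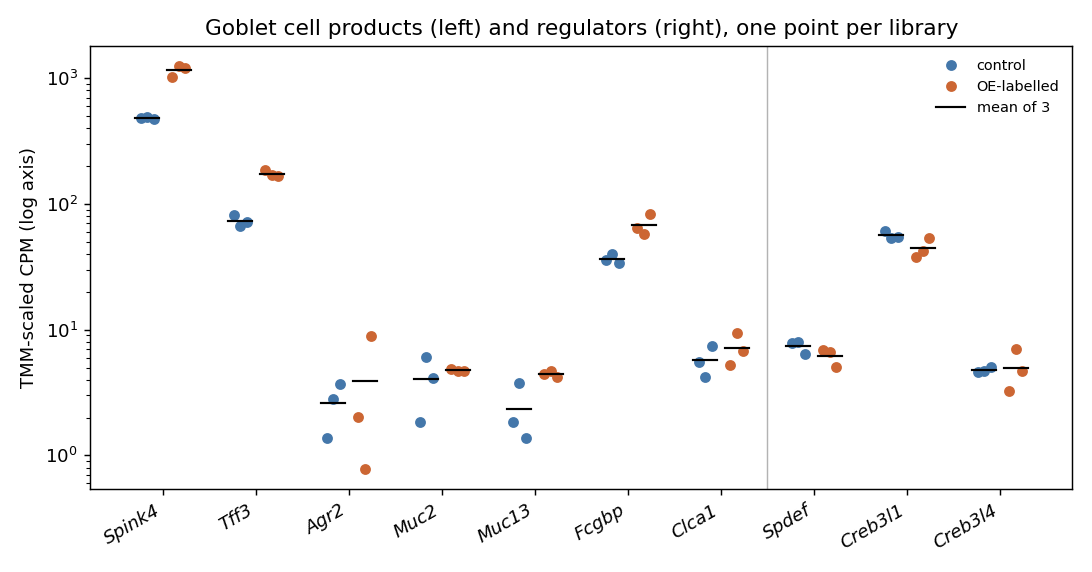
TMM-scaled CPM (log axis) of the 10 goblet cell genes in 3 control (blue) and 3 OE-labelled (orange) libraries, 1 point per library with the mean as a bar. Spink4, Tff3 and Fcgbp sit higher in all OE-labelled libraries, Creb3l1 sits lower, and the other genes lie below 10 CPM.

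Spink4, Tff3 and Fcgbp, the most abundant of the products, were all higher in OE-labelled libraries. Spink4, a Kazal-type protease inhibitor secreted by goblet cells, was counted at 477, 494 and 469 CPM in control replicates 1 to 3 and at 1011, 1246 and 1209 CPM in OE-labelled replicates 1 to 3. The groups were far apart, and the lowest OE-labelled library was replicate 1. The means were 480.3 ± 12.96 and 1155 ± 126 CPM (mean ± SD, n = 3), with log2 fold change 1.27 (SE 0.10). Tff3, the trefoil peptide that protects and repairs the mucosa, was counted at 81.1, 66.6 and 71.4 CPM for control and at 185, 169 and 167 CPM in the OE-labelled group. Its groups did not overlap either, and the OE-labelled values lay close together. The log2 fold change of Tff3 was 1.25 (SE 0.12), and the ratio of Spink4 to Tff3 counts ran from 5.89 to 7.42 for control and from 5.46 to 7.38 in OE-labelled libraries.

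Fcgbp encodes a large mucus protein that is secreted with MUC2. It was counted at 35.5, 39.9 and 34.1 CPM for control and at 64.4, 57.8 and 82.9 CPM in the OE-labelled group, with no overlap and with OE-labelled replicate 3 highest. The means were 36.5 ± 3.02 and 68.4 ± 12.99 CPM (mean ± SD, n = 3), with log2 fold change 0.90 (SE 0.16). Across all genes, fold changes moved with the GC content of the transcript (Spearman rho 0.37 over 10679 genes, which are not independent). With a per-library offset for GC content, the log2 fold change was 0.67 (SE 0.16) for Fcgbp, 1.14 (SE 0.11) for Spink4 and 1.05 (SE 0.12) for Tff3. Over the 16 alternatives the lowest values were 0.66, 1.13 and 1.05, in the same order.

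The other mucus genes were counted at a few reads per library. Muc2, the gel-forming mucin itself, had 4, 13 and 9 counts for control and 12, 12 and 11 in OE-labelled libraries. The control values spanned the OE-labelled ones, and the log2 fold change was 0.24 (SE 0.41), 0.65 without control replicate 2 and -0.11 without control replicate 1. Clca1, a secreted metalloprotease that processes mucus, had 12, 9 and 16 counts for control and 13, 24 and 16 in OE-labelled libraries, with overlapping groups and a log2 fold change of 0.33 (SE 0.34), which was 0.04 without OE-labelled replicate 2, 0.15 without control replicate 2 and 0.55 without control replicate 3. Muc13, a transmembrane mucin, had 4, 8 and 3 counts for control and 11, 12 and 10 in OE-labelled libraries. All 3 OE-labelled libraries were higher for Muc13, but it did not pass the count filter. A fit without the filter gave a log2 fold change of 0.90 (SE 0.49). Of the fits with a library left out, Muc13 was tested only in the 3 that drop a control library. Its values there were 0.67 to 1.44, the highest without control replicate 2. It was below the filter in each fit without an OE-labelled library, so this range does not show how far Muc13 depends on those libraries. Gm15657 overlaps Muc13 on the opposite strand, so reads of the 2 genes may be mixed.

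Agr2, the disulfide isomerase that folds MUC2, also failed the count filter. It had 3, 6 and 8 counts for control and 5, 2 and 21 in OE-labelled libraries. The high value came from OE-labelled replicate 3 alone, and the other OE-labelled libraries lay within or below the control range. Its spread in OE-labelled libraries, a CV of 112%, compares with 32.7% from counting alone at that depth. Its paralogue Agr3 had 0 counts in every library.

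The regulators did not follow the 3 abundant products. Spdef, an ETS-family transcription factor of goblet maturation, was counted at 7.83, 7.98 and 6.45 CPM for control and at 6.89, 6.68 and 5.07 CPM in the OE-labelled group. The ranges overlapped, with a log2 fold change of -0.25 (SE 0.29), which was -0.50 (SE 0.29) with the GC offset, -0.12 without OE-labelled replicate 3 and -0.38 without OE-labelled replicate 1. Creb3l1, the most abundant of the 3 factors, was counted at 60.4, 53.9 and 54.8 CPM for control and at 38.1, 42.1 and 53.3 CPM in the OE-labelled group. Every OE-labelled library lay below every control library, although OE-labelled replicate 3 came within 1 CPM of the control range. The log2 fold change of Creb3l1 was -0.34 (SE 0.15), and -0.59 (SE 0.16) with the GC offset. Creb3l4, its paralogue, was counted at 4.61, 4.69 and 5.07 CPM for control and at 3.24, 7.08 and 4.65 CPM in the OE-labelled group, which overlapped, with a log2 fold change of 0.06 (SE 0.36) that became -0.31 without OE-labelled replicate 2.

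**Figure D2:**
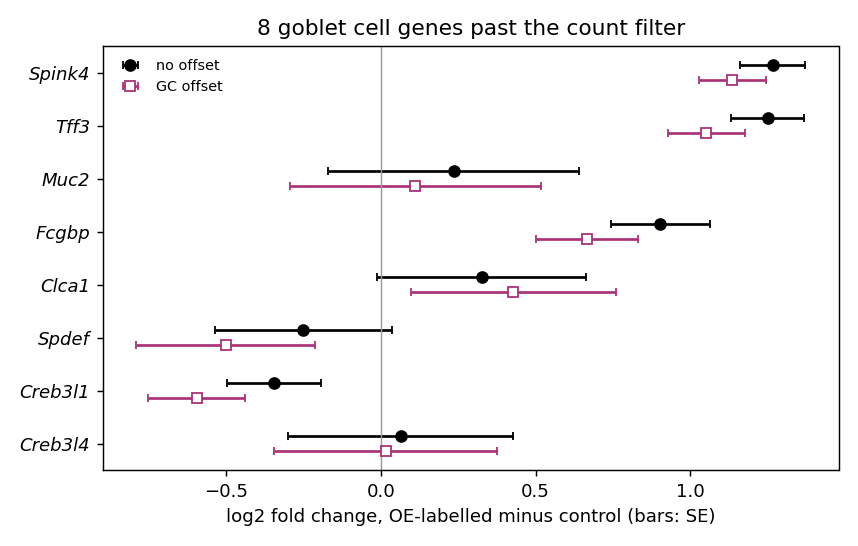
Log2 fold change (OE-labelled minus control) of the 8 goblet cell genes past the count filter, with SE bars, without an offset (black circles) and with a per-library GC offset (open squares). Spink4, Tff3 and Fcgbp lie at 0.90 to 1.27 without the offset, and the other 5 genes between -0.34 and 0.33.

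Of the 10 members, 8 passed edgeR's count filter. In the fit across all 10687 tested genes, 3118 genes (29.2%) had an edgeR adjusted p below 0.05, 16.5% higher and 12.7% lower in OE-labelled libraries. This balance moved with the analysis. Of the called genes, 56.6% were higher here, 63.8% with library totals, 48.4% without mitochondrial genes and 48.3% without OE-labelled replicate 1. Spink4, Tff3 and Fcgbp were among the genes called higher; because this contrast chose the members, that count of 3 of 8 is a description and nothing is read from it. Non-overlapping CPM ranges were seen in 45.7% of tested genes, 25.3% higher and 20.5% lower, and in 4 of the 8 members, 3 higher and Creb3l1 lower. The median log2 fold change of the 8 members was 0.28, beside 0.04 for all tested genes. The 7 members other than Spink4, Tff3 and Fcgbp, a set formed after their values were seen, summed to 83.3 ± 0.31 CPM for control and 75.9 ± 11.4 CPM in the OE-labelled group (mean ± SD, n = 3). Most of that sum was Creb3l1, at a mean of 56.4 CPM for control and 44.5 CPM in the OE-labelled group. Of the rest, Spdef had a lower OE-labelled mean, and Agr2, Muc2, Muc13, Clca1 and Creb3l4 had a higher one.

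Spread between libraries differed by gene and by group. Spink4 varied by a CV of 2.70% among control libraries, where counting alone gives 3.11%, and by 10.9% among OE-labelled libraries, where counting gives 1.88%. Fcgbp varied by 8.27% for control and 19.0% in OE-labelled libraries, against 11.3% and 7.73% from counting. Tff3 stayed close to counting error in OE-labelled libraries, at 5.69% against 4.84%. Over the 6 libraries, the genes whose profile was most like the members' mean standardized profile included, above an average log2 CPM of 5, Sod2 (Pearson r 0.99) and Eef1b2 (0.99). These profiles share the 2 groups and the library depths, and Eef1b2 overlaps other annotated genes.

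Library totals lay between 2180116 and 2519917 counts, so that 3 counts, the floor used for detection, corresponded to 1.18 to 1.41 CPM. These floors cover counting error only. The 2 groups carry library names of 2 separate series, so a library batch and the group cannot be told apart in any result here. The mitochondrial ribosomal RNAs took 8.93% to 9.41% of counts for control and 3.89% to 4.36% in OE-labelled libraries. In the fit without mitochondrial genes, the median log2 fold change of the 8 tested members was 0.23, beside 0.28 with these genes kept. Any further part of this difference in the members' values was not tested. Epithelial identity was checked with 9 markers, of which 7 had counts and Krt20 and Cdx1 had 0 in every library. The epithelial sum was 3948 to 4172 CPM for control and 5325 to 6025 CPM in the OE-labelled group. Krt8, Krt18, Krt19 and Vil1 were called higher, 4 of 7 tested (57.1%, beside 29.2% of all tested genes called either way). The labels do not say that the replicates were separate cultures, so p-values measure only the spread between these libraries, which may be technical.

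Other goblet cell genes were mostly near or at 0. Of 20 further secreted or granule genes, 5 passed the count filter, and Muc5b, Retnlb, Ang4, Agr3 and Best2 had 0 counts in every library. Zg16, the lectin of goblet mucus, had a count in OE-labelled replicate 2 only, and that count was 1. Of the 5 tested genes, 2 rose, 1 fell and 2 did not pass (60% called, beside 29.2% of all tested genes). Their median log2 fold change was 0.28, and was 0.11 with the GC offset and 0.12 without OE-labelled replicate 2.

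The strongest of these was a second trefoil factor. Tff2, a trefoil peptide of mucous cells that lies beside Tff3 on the minus strand of chromosome 17 (31141049 to 31144282, with Tff3 at 31125306 to 31129646 and Tff1 at 31161395 to 31165277, GRCm38), was counted at 31.3, 43.2 and 32.3 CPM for control and at 107, 119 and 144 CPM in the OE-labelled group. The groups were far apart, and the difference was 1.79 in log2 units (SE 0.16, edgeR adjusted p = 3.16e-05). Tff1, the third trefoil gene of the cluster, was counted at 6.45, 5.63 and 6.91 CPM for control and at 6.08, 9.04 and 8.03 CPM in the OE-labelled group, and these overlapping values did not pass (log2 fold change 0.28, SE 0.29, edgeR adjusted p = 0.491). Ccl6, a chemokine, rose from 3.09 ± 0.237 to 8.94 ± 0.682 CPM (SD, n = 3), or 1.52 ± 0.31 (SE) as log2 fold change (adjusted p = 0.00345 in edgeR). Sytl2, a RAB27 effector in granule transport, fell, at -1.21 ± 0.37 (SE) in log2 units (adjusted p = 0.0274 in edgeR). The call for Sytl2 was lost in 8 of 16 alternatives, with each control library left out among them (adjusted p from 0.012 to 0.136), whereas Tff2 and Ccl6 passed in all 16.

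**Figure D3:**
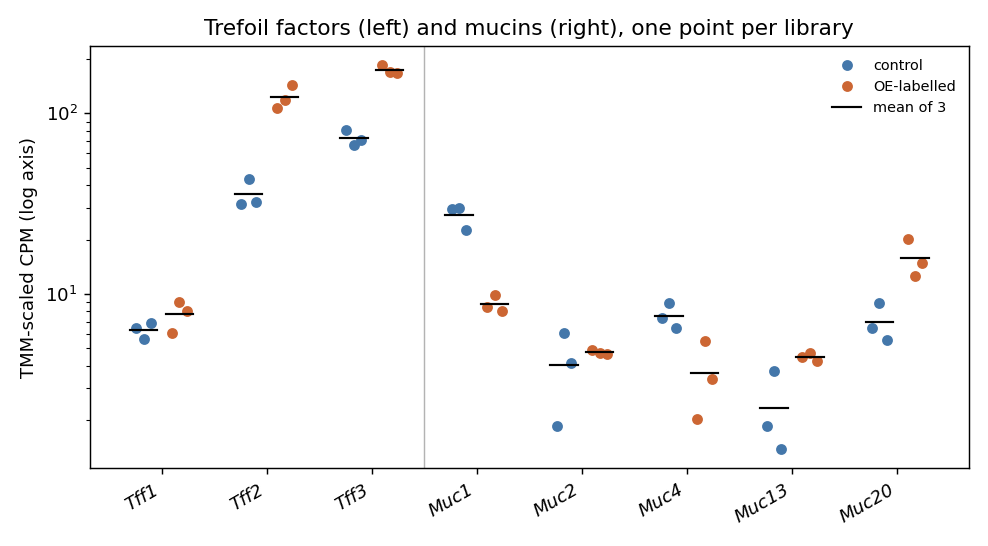
TMM-scaled CPM (log axis) of 3 trefoil factor genes and 5 mucin genes in 3 control (blue) and 3 OE-labelled (orange) libraries, 1 point per library with the mean as a bar. Tff2 and Tff3 are higher and Muc1 is lower in all OE-labelled libraries, while Tff1 and Muc2 overlap between groups.

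Cell surface mucins moved in both directions. Of 8 listed beside Muc13, 3 passed the count filter and 2 of these were called (66.7%, beside 29.2% of all tested genes). Muc1, a transmembrane mucin of many epithelia, was counted at 29.5, 30.02 and 22.6 CPM for control and at 8.51, 9.83 and 8.03 CPM in the OE-labelled group. These groups were well apart, and the difference was -1.63 in log2 units (SE 0.22, edgeR adjusted p = 0.000329), passing in all 16 alternatives. Muc20, another membrane mucin, rose from 6.97 ± 1.75 to 15.9 ± 3.95 CPM (SD, n = 3), or 1.18 ± 0.28 (SE) as log2 fold change (adjusted p = 0.00817 in edgeR), lost only without control replicate 3 (adjusted p = 0.051, in a range from 0.000901). Muc4 had lower values in all OE-labelled libraries and missed the threshold, at -1.04 ± 0.37 (SE) as log2 fold change (adjusted p = 0.0513 in edgeR), but passed in 8 of 16 alternatives (adjusted p from 0.0278 to 0.178). Muc20 and Muc4 overlap on opposite strands, so reads of the 2 genes may be mixed.

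Among 14 other fate regulators, 10 were tested and 0 passed in edgeR or in DESeq2, beside 29.2% of all tested genes in edgeR. Their median log2 fold change was 0.24, and was 0.03 with the GC offset. At an unadjusted p below 0.05 the count was 1 in edgeR, Klf4, an epithelial differentiation factor (log2 fold change 0.28, SE 0.11, edgeR adjusted p = 0.0651), and 0 in DESeq2. Klf4 passed in 2 of 16 alternatives, with library totals and without OE-labelled replicate 3 (adjusted p from 0.0253 to 0.646). Atoh1, the master factor of the secretory lineage, had 1, 0 and 0 counts for control and 0, 1 and 0 in OE-labelled libraries, below the floor of 3 counts throughout, and Gfi1 and Neurog3 had 0 in every library. Xbp1, the unfolded protein response factor needed by secretory cells, was counted at 242, 239 and 248.8 CPM for control and at 185, 320 and 372 CPM in the OE-labelled group. OE-labelled replicate 1 lay below the control range and the other OE-labelled libraries above it, and the difference was 0.26 in log2 units (SE 0.19, edgeR adjusted p = 0.324). Without OE-labelled replicate 1 it was 0.45 (edgeR adjusted p = 0.00129, in a range up to 0.825). Hes1, the Notch target that represses Atoh1, was counted at 316, 311 and 317 CPM for control and at 201, 331 and 321 CPM in the OE-labelled group (log2 fold change -0.15, SE 0.16, edgeR adjusted p = 0.521). Here too OE-labelled replicate 1 was the low library. Ern2, the goblet-restricted endoplasmic reticulum stress sensor, had groups that touched: its lowest OE-labelled value, 10.62 CPM, lay just above its highest control value, 10.597 CPM (log2 fold change 0.46, SE 0.25, edgeR adjusted p = 0.186).

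The wider family of Creb3l1 and Creb3l4 was split, with 33.3% of the tested genes on its list called, beside 29.2% of all tested genes. Of 7 further membrane-bound CREB3 and ATF6 family members and their proteases, 6 were tested, 1 rose, 1 fell and 4 did not pass, with a median log2 fold change of -0.09. Creb3 rose from 30.9 ± 3.21 to 48.1 ± 7.17 CPM (SD, n = 3), or 0.64 ± 0.16 (SE) as log2 fold change (adjusted p = 0.0116 in edgeR). Atf6, a stress sensor of the endoplasmic reticulum, fell from 105 ± 8.46 to 73.5 ± 9.39 CPM (SD, n = 3), or -0.52 ± 0.13 (SE) as log2 fold change (adjusted p = 0.0109 in edgeR). The call for Creb3 was lost with the GC offset and without control replicate 2 or 3 (adjusted p from 0.00672 to 0.0657), and that for Atf6 without control replicate 1 or 3 (from 0.0023 to 0.0612). Creb3 overlaps 2 genes on the opposite strand and Atf6 overlaps 2 on its own.

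The protein disulfide isomerase family, to which Agr2 belongs, likewise moved both ways. Calls made up 41.7% of its tested genes, beside 29.2% of all tested genes. Of 17 symbols listed, 12 genes were tested, 2 rose, 3 fell and 7 did not pass, a median log2 fold change of 0.06 whose sign turned with the GC offset (-0.06), with block and GC offset (-0.08) and without OE-labelled replicate 2 (-0.03) or 3 (-0.04). Txndc12, the close relative of Agr2 in the endoplasmic reticulum, rose from 19.9 ± 2.88 to 36.5 ± 4.93 CPM (SD, n = 3), or 0.87 ± 0.18 (SE) as log2 fold change (adjusted p = 0.00396 in edgeR). Ero1l, the oxidase that recharges the isomerases, fell from 301 ± 12.98 to 188 ± 15.6 CPM (SD, n = 3), or -0.68 ± 0.11 (SE) as log2 fold change (adjusted p = 0.000728 in edgeR). Both passed in all 16 alternatives. Tmx1 rose by 0.53, Tmx3 changed by -0.62 and Pdia3 by -0.41 on the log2 scale, with edgeR adjusted p of 0.017, 0.00977 and 0.0171. These calls were lost in 4, 3 and 6 of 16 alternatives, with adjusted p up to 0.101, 0.154 and 0.1. Without control replicate 3 alone, all 3 were lost, and Txndc12 and Ero1l were the 2 genes left. Txndc12 overlaps a gene on each strand, Tmx3 a gene on its own strand and Pdia3 a gene on the opposite strand.

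Mucin O-glycosylation genes included both initiating and extending enzymes. Of 27 listed, 17 were tested, 2 rose, 2 fell and 13 did not pass, with a median log2 fold change of -0.001, whose sign turned under other scalings (0.05 with library totals, 0.16 with the GC offset). This is 23.5% called, beside 29.2% of all tested genes. Galnt3 and Galnt7, which encode enzymes of the family that attaches the first sugar, fell: Galnt3 from 97.5 ± 9.77 to 44.7 ± 3.56 CPM and Galnt7 from 89.5 ± 6.99 to 54.5 ± 2.01 CPM (SD, n = 3). Their log2 fold changes were -1.12 (SE 0.13, edgeR adjusted p = 0.000157) and -0.71 (SE 0.12, edgeR adjusted p = 0.00123). B3gnt3, which extends the chains, rose from 36.1 ± 2.86 to 65.8 ± 0.417 CPM (SD, n = 3), or 0.86 ± 0.13 (SE) as log2 fold change (adjusted p = 0.000664 in edgeR). These 3 calls held in all 16 alternatives. Galnt10 rose by 0.57 (SE 0.16, edgeR adjusted p = 0.0182), a call lost in 6 of 16, among them the GC offset (0.35) and the fits without OE-labelled replicate 2 or control replicates 1 or 3 (adjusted p up to 0.134). St6galnac1, the sialyltransferase of goblet mucin, had 0 counts in every library. Galnt7, Galnt10 and B3gnt3 overlap other annotated genes, so their counts may hold other reads.

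Transport out of the endoplasmic reticulum, which the CREB3-like factors are known to control, was covered by 22 genes of the COPII coat and cargo receptors, all of them tested. Of these, 4 rose, 3 fell and 15 did not pass (31.8% called, beside 29.2% of all tested genes). The median log2 fold change was 0.18. Tfg, an organizer of exit sites, rose from 78.2 ± 7.55 to 130 ± 5.65 CPM (SD, n = 3), or 0.73 ± 0.12 (SE) as log2 fold change (adjusted p = 0.000883 in edgeR). Surf4, a cargo receptor, rose by 0.49 and Kdelr2, a retrieval receptor, by 0.57 (edgeR adjusted p = 0.0083 and 0.0102). The large-cargo receptors Mia2 and Mia3 fell, with log2 fold changes of -0.59 (SE 0.12, edgeR adjusted p = 0.00294) and -0.62 (SE 0.12, edgeR adjusted p = 0.00315), and so did Sec23ip at -0.73 (SE 0.16, edgeR adjusted p = 0.00432). Tfg, Mia2, Mia3 and Sec23ip passed in all 16 alternatives. The call for Surf4 was lost with the GC offset (0.29, adjusted p = 0.0997, up to 0.116 over the alternatives), and that for Kdelr2 without OE-labelled replicate 2 or control replicates 1 or 3 (adjusted p up to 0.069). Surf4, Mia2 and Sec23ip overlap other annotated genes.

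Granule release genes formed the last list, with 41.7% of its tested genes called, beside 29.2% of all tested genes. Of 17 listed, 12 were tested, 3 rose, 2 fell and 7 did not pass, with a median log2 fold change of -0.08 that was 0.02 without the count filter. Rab3d, a small GTPase of secretory granules, rose from 66.9 ± 4.78 to 99.7 ± 3.59 CPM (SD, n = 3), or 0.58 ± 0.12 (SE) as log2 fold change (adjusted p = 0.00355 in edgeR) that held in all 16 alternatives. Stxbp2 and Unc13d, which prepare vesicles for fusion, rose by 0.47 and 0.68 (edgeR adjusted p = 0.00834 and 0.0161). The fusion proteins Snap23 and Vamp7 had log2 fold changes of -0.76 and -0.61 (edgeR adjusted p = 0.0135 and 0.0195). With the GC offset the calls for Stxbp2, Unc13d and Snap23 were lost (adjusted p = 0.0897, 0.102 and 0.0868). Without control replicate 3, Rab3d was the 1 gene of the list that passed, and Vamp7 was also lost without control replicate 1 or 2 (adjusted p up to 0.0727).

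**Figure D4:**
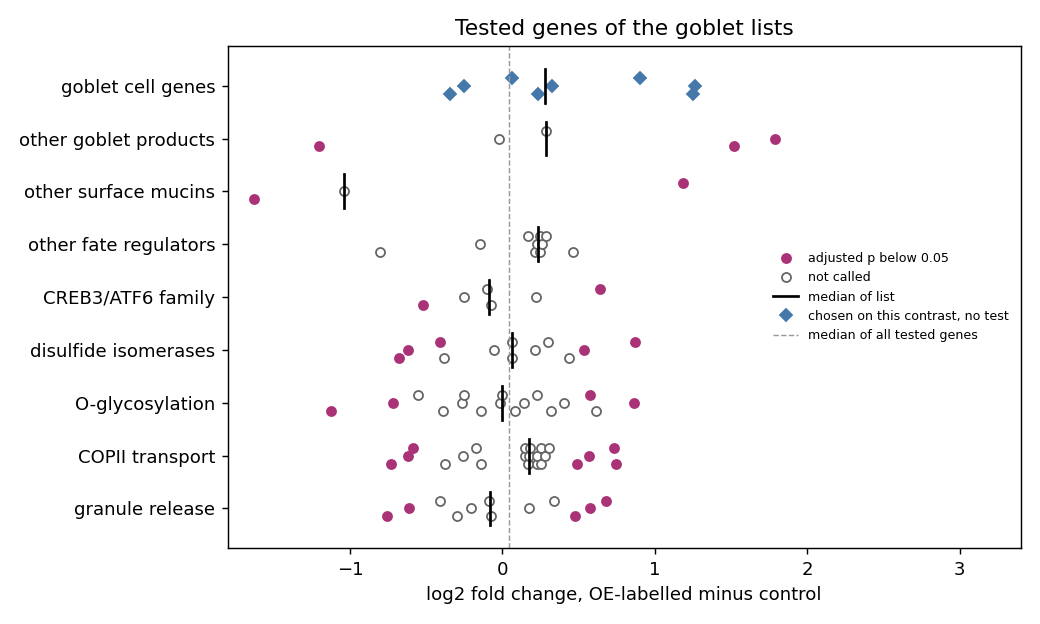
Log2 fold change (OE-labelled minus control) of every tested gene in 9 lists, 1 point per gene: blue diamonds are the 8 chosen goblet cell genes, filled circles passed an edgeR adjusted p of 0.05 and open circles did not. Black bars are list medians, from -1.04 (3 surface mucins) to 0.28, and the dashed line is the median of all tested genes, 0.04.

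Markers of other cell types were examined beside the goblet genes. Of 10 Paneth cell markers, Lyz1, 5 defensin genes and Pla2g2a had 0 counts in every library, and the 2 tested, Mmp7 and Nupr1, were higher. The sum of the Paneth list was 357 to 358 CPM for control and 553 to 595 CPM in the OE-labelled group. Most of it was Nupr1 alone, at a mean of 325 CPM for control and 502 CPM in the OE-labelled group. Of 10 tuft cell markers, 4 were tested and Avil and Cd24a were higher, with a sum of 521 to 559 CPM for control and 713 to 805 CPM in the OE-labelled group. Cd24a was the largest part of it, at a mean of 269 CPM for control and 440 CPM in the OE-labelled group, and Dclk1 and Ptgs1 were not called. Enteroendocrine markers were near 0, with 8 of 11 at 0 in every library and sums of at most 1.57 CPM. Of 11 enterocyte markers, Apob alone was tested and was lower, and 6 were at 0, with sums of 6.45 to 7.37 CPM for control and 1.18 to 2.11 CPM in the OE-labelled group. Of 7 stem cell markers, 5 were tested and Ascl2 was higher, with sums of 395 to 423 CPM for control and 429 to 496 CPM in the OE-labelled group. Most of this sum was Slc12a2, at means of 367 and 414 CPM, which was not called, and Ascl2 had means of 3.54 and 10.3 CPM. Fibroblast and endothelial markers summed to at most 1.88 CPM. Among the immune markers, Cd3e, Cd79a and Lyz2 were at 0 in every library and Csf1r was higher, with sums of 41.3 to 51.6 CPM for control and 60.9 to 75.8 CPM in the OE-labelled group. Among all tested genes 16.5% were called higher and 12.7% lower, so nothing about a cell type is read from single markers. The part of other cell types in the goblet gene differences was not tested.

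The start of transcription was compared for the 2 secreted partners on chromosome 7, Fcgbp and Muc2, whose fold changes were not tested against each other. RefSeq promoter windows (GRCm38.p6, 250 bases before to 50 after the start) matched 6 of the 10 members, all but Spink4, Tff3, Clca1 and Creb3l1. The 100 bases before each start are shown on the gene strand, with TATAA and CAGNTG matches in capitals.
Fcgbp, chr7:28071136-28071235, plus strand: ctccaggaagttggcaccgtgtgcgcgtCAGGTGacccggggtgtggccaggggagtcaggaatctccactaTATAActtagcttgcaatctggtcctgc
Muc2, chr7:141690240-141690339, plus strand: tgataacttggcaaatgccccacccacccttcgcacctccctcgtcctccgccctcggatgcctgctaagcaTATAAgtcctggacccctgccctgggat
Both held TATAA, which begins 28 bases before the start in each. Motifs were searched on both strands of the whole window. The E-box letters CAGNTG, recognized by ATOH1-class factors, matched 4 times for Fcgbp and 1 time for Muc2, and 51.4% of all 32851 windows hold them. TATAA is in 24.9% of all windows. The ETS letters CCGGAT, of the kind SPDEF binds, are in 6.04% of all windows, and the forkhead letters TGTTTAC in 3.65%; neither matched in the windows of the 6 genes. The CRE-type letters TGACGT, in 7.51% of all windows, matched in that of Spdef. A match describes the letters and is not a binding site, and no binding was measured here.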

How the data were processed

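The authors deposited 1 table of unnormalized estimated counts per gene for 6 libraries. STAR, HTSeq, mm10 and GRCm38 are named in the submitters' processing notes; strand setting, annotation and use of molecular identifiers are not given in the sources used here. Libraries were made from total RNA with a QuantSeq 3′ forward kit, per the labels' protocols. Columns were matched to samples through the library name in the description, and groups and replicate numbers come from the titles. Of the values above 0, 3.09% were fractional; all were rounded, although whole numbers had been assumed when the design was written.

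OE-labelled was compared with control by the quasi-likelihood test of edgeR 4.0.16 (R 4.3.3), with filterByExpr, TMM scaling, no covariates and Benjamini-Hochberg adjustment over 10687 genes. Standard errors are the log2 fold change divided by the root of the F statistic. For genes below the filter the fold change is from a fit without it. On simulated counts for 10531 genes of this comparison, 200 of them changed by 1 log2 unit, 79% were recovered and 5.95% of calls were false. With no change, 0 calls were made. The simulation gave every gene the same spread, held no batch or GC trend, and changed far fewer genes than the real fit called. These rates therefore check the procedure and need not hold for the real libraries. Alternatives were DESeq2 size factors, library totals, DESeq2 1.42.0, 2 count filters, unrounded counts, a replicate block, a GC offset (loess, span 0.5, on the longest GENCODE M21 transcript), block with GC offset, removal of mitochondrial genes, and each library left out.

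Members and lists were chosen with earlier results of these data known, and the lists were written from general knowledge. The naming rule took all members; per list, up to 3 higher and 3 lower genes past 0.05 by smallest p, or else its 2 most abundant; Atoh1, Xbp1, Zg16, Ern2, Agr3, Igf2bp3 and Apc; and the 3 genes most like the members' mean profile. Some results that this rule or the marker lists cover are not reported here. Tff1, Muc4, Klf4 and genes named for a count of 0 or as cell type markers were added outside it.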

Additional observations from a re-analysis of the deposited data

How the results depend on the processing

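The members were chosen on this contrast, so their calls under alternatives are a description: 3 or 4 of them were called in each, Spink4, Tff3 and Fcgbp each time and Creb3l1, as lower, in 3 of 16. With 1 library left out at a time, the members' median log2 fold change of 0.28 took values of 0.13 to 0.65 (0.65 without control replicate 2). The count over all genes, 3118, ran from 1748 to 3532 in those fits, the 3 fits without a control library giving the lowest counts. In the same fits, calls ran from 1 to 3 for surface mucins, 0 to 2 for fate regulators, 0 to 2 for the CREB3 family, 2 to 6 for disulfide isomerases and 1 to 6 for granule release. With library totals 1 fate regulator passed. With the GC offset the CREB3 family gave 1 call, disulfide isomerases 3 and granule release 2, and the replicate block with GC offset gave 3 for granule release. For genes named by the rule other than the members, 474 values stayed on their side of the threshold, 66 lost the call, 4 gained one and 0 changed sign; the cause was not tested. Whether equal replicate numbers pair the libraries is not settled by these values. Deviations from the group means correlated at 0.10, 0.02 and 0.07 for numbers 1, 2 and 3. The mean correlation was 0.062 for equal numbers and -0.031 for unequal ones, and 5 of 6 libraries correlated best with their own number. With 3 libraries per group, correlations this small can neither show nor exclude pairing. With the replicate block 3112 genes passed, 2958 of them shared, and Muc4 passed (adjusted p = 0.0431); no call of a gene named by the rule changed. Depth limits Agr2, Muc2, Muc13, Clca1, Spdef and Creb3l4, with standard errors of 0.29 to 0.49 on the log2 scale.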
